A study of Rattus norvegicus with 12 samples.

Results

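The genes described here are 9 members of the transient receptor potential (TRP) family of cation channels that were expressed in the rat kidney: Trpv2, Trpv4, Trpm2, Trpm4, Trpm6, Trpm7, Trpc1, Trpc6 and Pkd2. They were looked up by gene symbol among the 20792 symbols of the control and adenine table and the 26976 symbols of the sham and UUO table. Each had a single entry in both. The list of members was drawn up with earlier results of these data known. Kidney RNA of 12 male Sprague-Dawley rats without genetic modification, 8 weeks old when bought, had been sequenced in 4 groups of 3. Rats of the adenine group received 220 mg/kg adenine by gavage every day for 3 weeks, which injures the tubules and interstitium of both kidneys, and rats of the control group received saline for the same time. In the UUO (unilateral ureteral obstruction) group the left ureter was tied 2 weeks before the tissue was taken, and rats of the sham group had the operation without ligation. Which kidney, and which part of it, was sequenced is not stated in the sources used here. The values are FPKM (fragments per kilobase of transcript, scaled to the mapped fragments of the library), a level corrected for transcript length and library size. The tables of the adenine and UUO models were normalized separately, so changes were tested only within a table. All 9 members reached the minimum of 0.5 FPKM in every one of the 12 kidneys, the lowest value being 0.502, so none entered the test through an affected group alone.

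TRP channels are membrane pores that let sodium, calcium and, in some members, magnesium into the cell or out of internal stores. They open on chemical, osmotic, mechanical or receptor-linked signals, and the TRPV, TRPM, TRPC and polycystin subfamilies differ in what opens them. In the kidney the family is known for magnesium reabsorption in the distal convoluted tubule, calcium reabsorption in the distal nephron, the slit diaphragm of the podocyte and the primary cilium of tubule cells, and several members are also used by immune cells and fibroblasts.

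As shown by the FPKM of each kidney, 4 of the 9 members were upregulated in the adenine group and 1 was downregulated (limma on log2(FPKM + 0.1), Benjamini-Hochberg adjusted p under 0.05 over all entries tested). The upregulated members were Trpv2, Trpm2, Trpm4 and Trpc6, and the downregulated member was Trpv4. Of all 15029 entries tested in that table, 39.6% were called higher and 19.9% lower, so 44.4% of members higher was close to the share among all genes. In the UUO group 6 members were upregulated, namely Trpv2, Trpm2, Trpm4, Trpc6, Trpc1 and Pkd2, and Trpm6 was downregulated. Here 56.1% of the 15043 entries tested were called higher and 14.4% lower, against 66.7% and 11.1% of the members. The 4 members upregulated in the adenine model were all among the 6 of the UUO model, no member was downregulated in both, and Trpm7 passed the test in neither. The p-values measure the spread between the rats of a group.

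**Figure D1:**
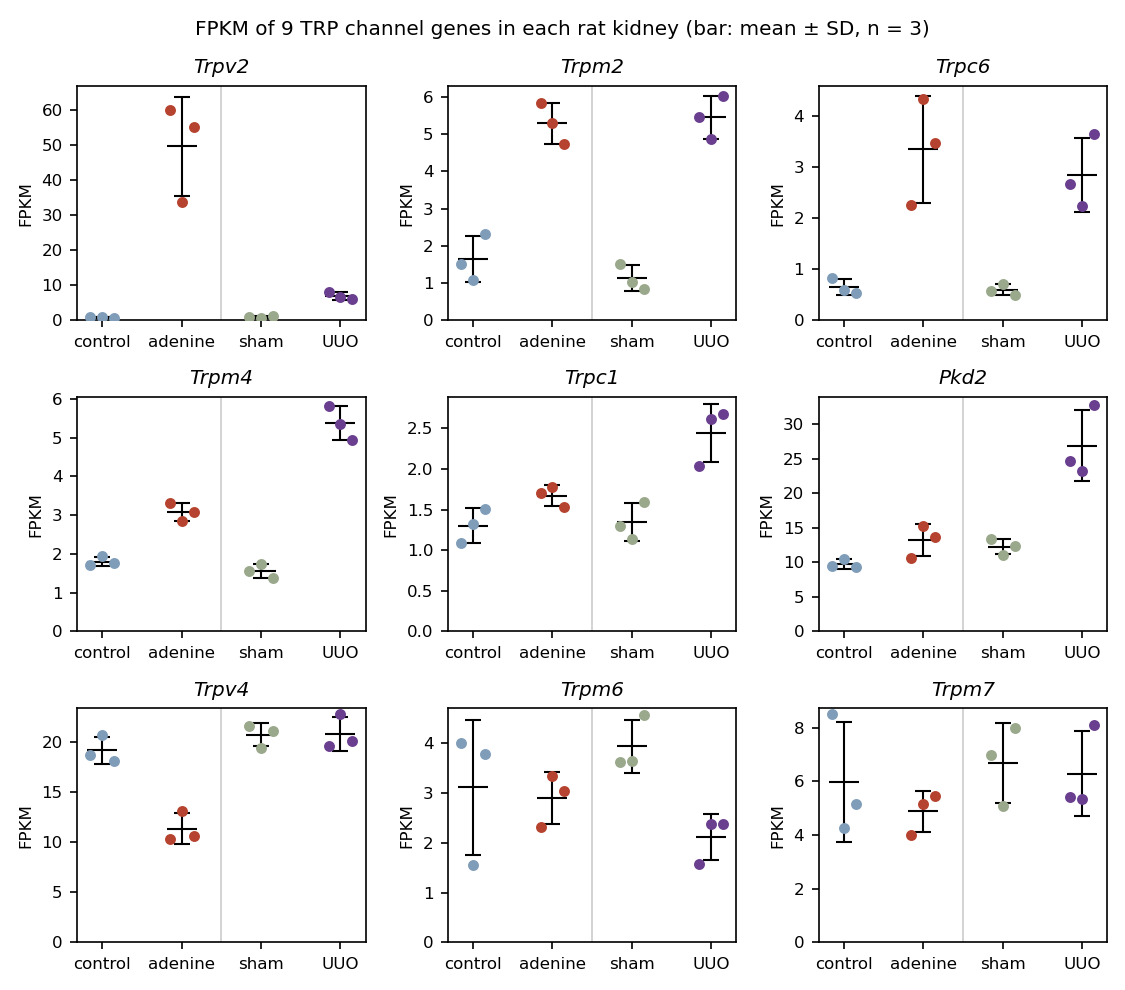
FPKM (vertical axes, linear, starting at 0) of the 9 TRP genes in each of the 12 kidneys, with a point for each rat and a bar at the mean ± SD (n = 3); the grey line parts the tables, which were normalized separately. Trpv2 lay between 33.5 and 59.9 in the adenine group and between 0.786 and 0.972 in the control group, while Trpv4 was lower in the adenine group and lay at 19.4 to 22.8 in the sham and UUO groups.

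The study's thresholds for differentially expressed genes (DEGs) also ask for a log2 fold change of 2 or more in either direction. They were applied here to limma, whereas the study used DESeq2. Trpm2, which the study names among its DEGs of the adenine model, had 1.68 there by limma and was not one here. By these thresholds Trpv2 and Trpc6 were DEGs of the adenine model and Trpv2, Trpm2 and Trpc6 those of the UUO model. All were upregulated, and 0 members were downregulated DEGs by limma at an adjusted or unadjusted p, the lowest log2 fold change being -0.89. The share of all entries that were upregulated DEGs was 10.7% in the adenine table and 13.2% in the UUO table, and 5.03% and 4.21% were downregulated DEGs. Trpc6 lay close to the limit, and without adenine rat 2 its log2 fold change was 1.95 and Trpv2 was the 1 DEG left, while without sham rat 3 or UUO rat 3 it was 1.95 or 1.87 and 2 DEGs were left. The median log2 fold change of the members was 0.42 with adenine and 1.11 with UUO. That of all tested entries was 0.30 and 0.62, and median-of-ratios scaling, which centres most genes, brought it to 0.013 and 0.033. The changes of the members were therefore also set against those medians.

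The promoters of the 3 DEGs of the UUO model are printed because these members rose together in both models. Each is the 250 bases before the RefSeq start of the gene (build GRCr8, plus strand as printed), and capitals mark matches on either strand to the motifs searched. Trpv2 is at chr10:47771973-47772222 (+), Trpm2 at chr20:10704222-10704471 (+) and Trpc6 at chr8:14043966-14044215 (+).
Trpv2: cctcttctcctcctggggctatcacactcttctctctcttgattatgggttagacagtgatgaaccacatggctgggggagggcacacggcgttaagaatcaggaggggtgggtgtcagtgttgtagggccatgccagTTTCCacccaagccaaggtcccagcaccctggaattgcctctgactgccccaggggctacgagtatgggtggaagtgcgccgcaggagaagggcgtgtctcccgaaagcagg
Trpm2: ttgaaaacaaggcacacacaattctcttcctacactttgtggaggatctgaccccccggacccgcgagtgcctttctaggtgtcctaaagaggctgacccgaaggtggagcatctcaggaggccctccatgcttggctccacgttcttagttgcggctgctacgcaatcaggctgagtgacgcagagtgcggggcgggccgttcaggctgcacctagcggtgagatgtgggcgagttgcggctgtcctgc
Trpc6: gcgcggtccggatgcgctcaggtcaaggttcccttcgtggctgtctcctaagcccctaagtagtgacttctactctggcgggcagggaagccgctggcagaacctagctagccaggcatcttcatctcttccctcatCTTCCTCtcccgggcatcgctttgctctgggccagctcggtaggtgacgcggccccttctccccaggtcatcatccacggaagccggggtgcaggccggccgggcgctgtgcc
The motifs were AP-1 (TGANTCA), PU.1 (GAGGAAG), an E-box (CAGCTG) and the NFAT core (GGAAA), of which the PU.1 and NFAT letters share GGAA. Of 33469 RefSeq promoters of the same length, 6.34% held the AP-1 letters, 10.2% PU.1, 12% the E-box and 56.9% the NFAT core. Trpv2 held 1 NFAT core at position -112, Trpc6 held 1 PU.1 match at -113, and Trpm2 held none of the 4. A promoter entry was found for 8 of the 9 members, all but Trpc1. The matches were not particular to the members that rose. Trpm6 held the NFAT core at each of its starts and PU.1 at the neighbouring starts 2 and 3, and Trpm7 held an NFAT core. Trpm4, Trpv4 and Pkd2 held none of the 4.

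Trpv2 encodes a calcium-permeable channel of the plasma membrane and endosomes that macrophages use in phagocytosis and migration. Its level was 0.972, 0.898 and 0.786 FPKM in control rats 1 to 3 and 59.9, 33.5 and 55.1 FPKM in the adenine rats. In the sham rats it was 0.846, 0.820 and 1.38 FPKM and in the UUO rats 8.03, 6.75 and 5.99 FPKM. Every affected kidney was above every kidney of its reference group, and adenine rat 2 was the lowest of its group. The mean was 55.9 times the control mean in the adenine model (log2 fold change 5.61 ± 0.24 SE, adjusted p = 2.55e-05, limma) and 6.82 times the sham mean in the UUO model (2.68 ± 0.24, adjusted p = 0.000115). Relative to the median of all genes the log2 changes were 5.32 and 2.06. Trpv2 ranked at place 77 of the 15029 entries of the adenine table by log2 fold change, above 99.5% of them, and in the UUO table it was above 92.4%. In the annotation a protein-coding gene and 3 small nucleolar RNA genes overlap the bounds of Trpv2, and whether strand was used in counting is not stated in the sources used here.

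Trpm2, a calcium-permeable channel opened by intracellular ADP-ribose and oxidative stress, is abundant in phagocytes. Its FPKM was 1.52, 1.09 and 2.32 in the control group and 5.83, 5.29 and 4.73 in the adenine group. In the sham group it was 1.53, 1.03 and 0.847, and in the UUO group 5.46, 4.85 and 6.02. The groups lay apart in both tables and the affected kidneys differed little among themselves, with a coefficient of variation of 10.5% and 10.7%. The log2 fold change was 1.68 ± 0.28 (3.22-fold, adjusted p = 0.00217, limma) in the adenine model and 2.20 ± 0.24 (4.8-fold, adjusted p = 0.00025) in the UUO model, or 1.38 and 1.58 above the median gene. The bounds of Trpm2 overlap 2 small nucleolar RNA genes in the annotation.

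Trpc6 encodes a channel opened by diacylglycerol downstream of phospholipase C, known from the podocyte slit diaphragm, vascular smooth muscle and fibroblasts. It was the lowest of the 9 members in both reference groups, at 0.829, 0.606 and 0.542 FPKM in the control rats and 0.586, 0.721 and 0.502 FPKM in the sham rats. The adenine rats had 2.25, 4.34 and 3.47 FPKM and the UUO rats 2.66, 2.24 and 3.66 FPKM. No affected kidney overlapped its reference group. The log2 fold change was 2.16 ± 0.30 (5.09-fold, adjusted p = 0.00104, limma) in the adenine model and 2.05 ± 0.26 (4.73-fold, adjusted p = 0.000481) in the UUO model. At these low levels a fold change on the log2(FPKM + 0.1) scale understates the ratio of the means. The bounds of Trpc6 overlap a pseudogene in the annotation.

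Trpm4, a channel for monovalent cations that calcium opens from inside the cell, was at 1.71, 1.94 and 1.76 FPKM in the control group and 3.32, 2.85 and 3.07 FPKM in the adenine group. It was at 1.57, 1.74 and 1.37 FPKM in the sham group and 5.83, 5.35 and 4.95 FPKM in the UUO group. The groups lay apart in both tables. The log2 fold change was 0.74 ± 0.16 (1.71-fold, adjusted p = 0.00755, limma) in the adenine model and 1.73 ± 0.17 (3.45-fold, adjusted p = 0.000143) in the UUO model. The adenine call was not kept under median-of-ratios scaling (0.46, adjusted p = 0.0533, limma) or quantile normalization (0.22, adjusted p = 0.321).

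Trpc1 is widely expressed and assembles with other TRPC subunits in receptor-operated and store-operated calcium entry. The control rats had 1.09, 1.32 and 1.51 FPKM and the adenine rats 1.70, 1.77 and 1.53 FPKM. The sham rats had 1.3, 1.13 and 1.60 FPKM and the UUO rats 2.03, 2.61 and 2.68 FPKM. The groups did not overlap in either table, but in the adenine model the distance between control rat 3 and adenine rat 3 was small and the change did not pass the test (0.34, 95% interval -0.15 to 0.83, adjusted p = 0.190, limma). In the UUO model the log2 fold change was 0.82 ± 0.22 (1.82-fold, adjusted p = 0.0127, limma), only 0.20 above the median gene. That call was lost under median-of-ratios scaling (0.25, adjusted p = 0.328, limma) and the sign turned under quantile normalization (-0.027, adjusted p = 0.914).

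Pkd2 encodes polycystin-2, the cation channel of the primary cilium and endoplasmic reticulum that is mutated in a form of autosomal dominant polycystic kidney disease. Its level was 9.41, 10.5 and 9.27 FPKM in the control rats and 10.6, 15.3 and 13.7 FPKM in the adenine rats. It was 13.4, 11.1 and 12.3 FPKM in the sham rats and 24.7, 23.2 and 32.7 FPKM in the UUO rats. Adenine rat 1 lay just above the highest control rat, whereas every UUO rat was well above the sham rats. In the adenine model the log2 fold change of 0.42 (95% interval 0.045 to 0.80) had an adjusted p of 0.0554 by limma, and without adenine rat 1 it was 0.57 with an adjusted p of 0.016. Its change in the UUO model was 1.11 ± 0.15 (2.19-fold, adjusted p = 0.000686, limma), or 0.50 above the median gene.

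Trpv4, opened by cell swelling, stretch and moderate warmth, is expressed along the distal nephron and collecting duct, and it was the most highly expressed of the 9 genes in both reference groups. The control rats had 18.8, 20.7 and 18.1 FPKM and the adenine rats 10.3, 13.1 and 10.7 FPKM. The sham rats had 21.7, 19.4 and 21.1 FPKM and the UUO rats 19.7, 22.8 and 20.1 FPKM. All adenine rats were below all control rats, and the sham and UUO rats overlapped. In the adenine model Trpv4 fell by 0.76 on the log2 scale (SE 0.13, adjusted p = 0.00272, limma), the control mean being 1.69 times the adenine mean. In the UUO model its log2 fold change was 0.0057 (95% interval -0.23 to 0.24, adjusted p = 0.962, limma), but the median gene rose there, and the value was -0.59 (adjusted p = 0.00297, limma) under median-of-ratios scaling and -0.44 (adjusted p = 0.00955) under quantile normalization.

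Trpm6, the magnesium channel of the distal convoluted tubule and the intestine, was at 4.01, 1.56 and 3.79 FPKM in the control group and 2.33, 3.35 and 3.04 FPKM in the adenine group. It was at 3.62, 3.65 and 4.56 FPKM in the sham group and 1.58, 2.38 and 2.38 FPKM in the UUO group. Control rat 2 was far below its group, which gave Trpm6 the widest spread of any member in any group (coefficient of variation 43.5%), and the adenine rats lay within the range of the control rats. The log2 fold change in the adenine model was -0.0037 (95% interval -0.90 to 0.89, adjusted p = 0.994, limma) and -0.43 without control rat 2 (adjusted p = 0.132). In the UUO model all 3 rats were below all sham rats and Trpm6 fell by 0.89 (SE 0.22, adjusted p = 0.00934, limma), the sham mean being 1.87 times the UUO mean. Its bounds overlap a long non-coding RNA gene in the annotation.

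Trpm7, a ubiquitous magnesium, calcium and zinc channel with a kinase domain of its own, was at 8.50, 4.27 and 5.15 FPKM in the control group and 4.0, 5.18 and 5.47 FPKM in the adenine group. It was at 6.98, 5.08 and 8.00 FPKM in the sham group and 5.41, 5.35 and 8.12 FPKM in the UUO group. The groups overlapped in both tables. The log2 fold change was -0.24 (95% interval -0.89 to 0.42, adjusted p = 0.485, limma) in the adenine model and -0.09 (95% interval -0.65 to 0.47, adjusted p = 0.747) in the UUO model. Where most genes were centred it was called lower in the UUO model, at -0.68 under median-of-ratios scaling (adjusted p = 0.0297, limma) and -0.78 under quantile normalization (adjusted p = 0.0172).

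**Figure D2:**
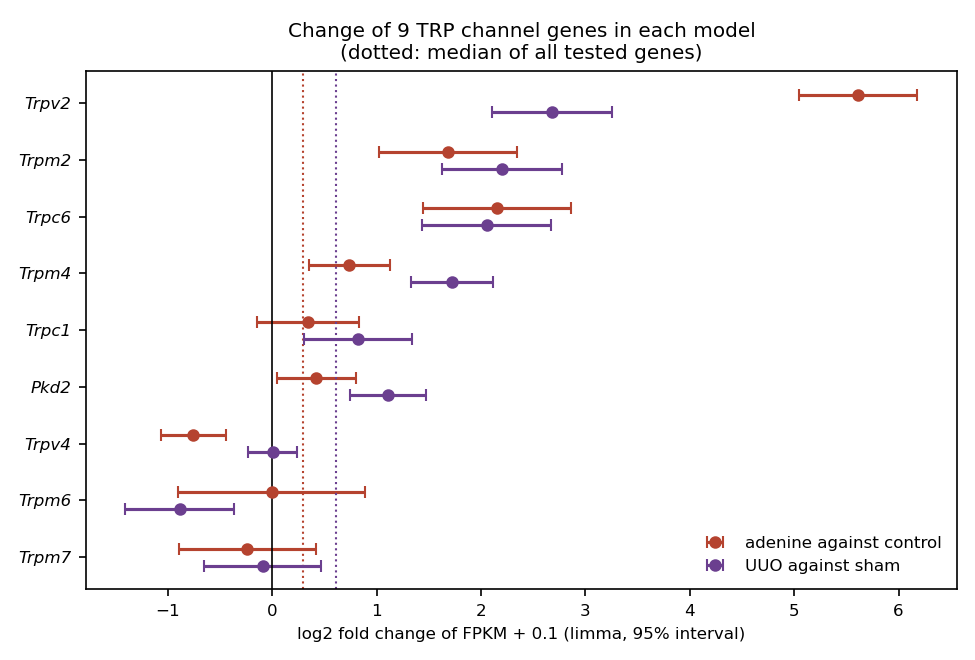
Log2 fold change of each TRP gene (horizontal axis, log2(FPKM + 0.1) scale, point with 95% interval from limma) in the adenine model (red) and the UUO model (purple), with dotted lines at the medians of all tested genes, 0.30 and 0.62. Trpv2 stood far to the right in the adenine model at 5.61, and Trpv4 was below 0 in the adenine model but at 0.0057 in the UUO model, a value that turned to -0.59 under median-of-ratios scaling and -0.44 under quantile normalization; Trpc1 in the UUO model, at 0.82, turned to -0.027 under quantile normalization.

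The order of the members by mean FPKM differed between the reference and the affected kidneys. In the control group it was Trpv4 (19.2 ± 1.36, SD, n = 3), Pkd2 (9.74 ± 0.70), Trpm7 (5.97 ± 2.23), Trpm6 (3.12 ± 1.36), Trpm4 (1.80 ± 0.12), Trpm2 (1.64 ± 0.62), Trpc1 (1.3 ± 0.21), Trpv2 (0.885 ± 0.094) and Trpc6 (0.659 ± 0.15). The first 4 were separate from each other in every rat, while Trpm6 overlapped Trpm4, Trpm4 overlapped Trpm2, Trpm2 overlapped Trpc1, and Trpv2 overlapped Trpc6. The sham group had Trpv4 (20.7 ± 1.16), Pkd2 (12.3 ± 1.13), Trpm7 (6.69 ± 1.48), Trpm6 (3.94 ± 0.53) and Trpm4 (1.56 ± 0.18) at the top, with Trpm4, Trpc1, Trpm2 and Trpv2 overlapping as neighbours and Trpc6 last at 0.603 ± 0.11. In the adenine group Trpv2 came first (49.5 ± 14) without overlap with Pkd2 (13.2 ± 2.38), Pkd2 overlapped Trpv4 (11.4 ± 1.53), and Trpc1 was last (1.67 ± 0.13). In the UUO group Pkd2 came first (26.9 ± 5.15) above Trpv4 (20.8 ± 1.69), Trpv2 was in the third place (6.93 ± 1.03) with Trpm7, Trpm2 and Trpm4 overlapping as neighbours after it, and Trpm6 was last (2.11 ± 0.46).

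The summed FPKM of the 9 genes was 42.9 to 46.8 in the control rats and 84.8 to 101 in the adenine rats, and 44.7 to 51.7 in the sham rats and 75.4 to 86.6 in the UUO rats. Trpv2 and Pkd2 accounted for much of the larger sums. Trpv2 took 1.82% to 2.09% of the sum in the control group and 39.6% to 59.7% in the adenine group, against 1.64% to 2.67% in the sham group and 6.92% to 10.7% in the UUO group. Pkd2 took 23.8% to 26.0% in the sham group and 30.7% to 37.8% in the UUO group, and the share of Trpv4 was 40.1% to 48.2% in the control group and 10.3% to 15.5% in the adenine group.

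**Figure D3:**
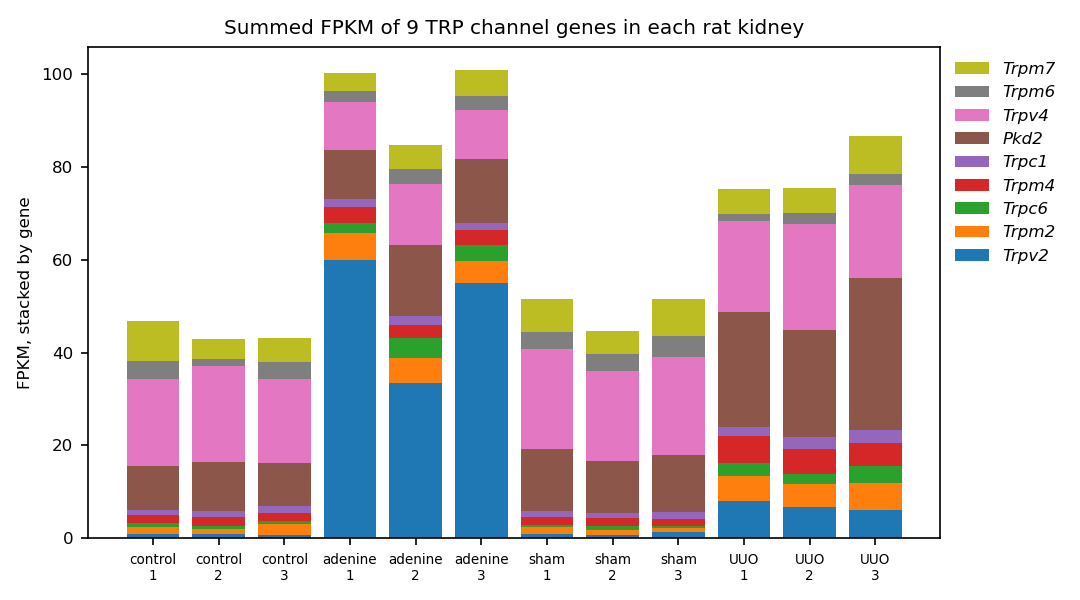
Summed FPKM of the 9 TRP genes (vertical axis, starting at 0) in each of the 12 kidneys, a stacked bar for each rat and a colour for each gene. The sums were 42.9 to 51.7 in the control and sham rats, 84.8 to 101 in the adenine rats, where Trpv2 was the tallest block, and 75.4 to 86.6 in the UUO rats, where Pkd2 was.

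The models were compared through the difference of their log2 fold changes, tested over the 13486 symbols measured once in both tables, of which 27% passed an adjusted p of 0.05. Of the 9 members 4 passed. The change of Trpv2 was larger in the adenine model by 2.93 (SE 0.34, adjusted p = 0.00013). Those of Trpm4 and Pkd2 were smaller in the adenine model, with differences of -0.99 (adjusted p = 0.0082) and -0.69 (adjusted p = 0.0345), and that of Trpv4 was lower by -0.76 (adjusted p = 0.0050). Trpv2 alone passed under all 21 alternatives. For Trpv2 mRNA the study, citing its qRT-PCR figure, gives a far larger rise with UUO than with adenine. That order is opposite to the one found here, and the reason was not tested. Trpm4 and Trpv4 did not pass under median-of-ratios scaling (adjusted p = 0.0656 and 0.0808), and Trpm4 not under quantile normalization (adjusted p = 0.0781). Pkd2 did not pass in 11 of the 21, among them those without control rat 2 or 3, adenine rat 1 or 3, sham rat 2 or 3 or UUO rat 3, where the difference was -0.72 to -0.54. For Trpc6 the difference was 0.10, with a 95% interval of -0.75 to 0.95 (adjusted p = 0.874), and the interval of Trpm6, -0.05 to 1.82 around 0.88 (adjusted p = 0.145), also held 0. The differences of Trpm2 (-0.52, adjusted p = 0.312), Trpc1 (-0.48, adjusted p = 0.251) and Trpm7 (-0.15, adjusted p = 0.793) did not pass.

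Marker genes of several cell types were measured in the same kidneys. In bulk tissue, fewer cells of a type and less RNA per cell cannot be told apart. Over all entries, 39.6% were called higher and 19.9% lower in the adenine table, and 56.1% and 14.4% in the UUO table, and the counts of the gene lists stand against these shares. All 10 macrophage and myeloid markers were called higher in both models (limma), with a median log2 fold change of 5.06 and 3.14. Itgam, Cd163 and Mrc1 passed the minimum only with the affected kidneys, so their calls add nothing to the count. The summed FPKM was 170 to 240 in the control and 6502 to 13179 in the adenine rats, and 195 to 322 in the sham and 1466 to 2161 in the UUO rats, but Lyz2, the lysozyme of myeloid cells, made up 82.9% to 93.6% of it in every kidney. The sum of the other 9, looked at after the values were seen, was 25.4 to 29.2 in the control, 538 to 850 in the adenine, 24.4 to 34.0 in the sham and 250 to 293 in the UUO rats. The markers did not move alike. Lyz2 (52.0-fold with adenine and 6.71-fold with UUO) and Cd68 (77.1-fold and 13.5-fold) changed more in the adenine model, with differences of 2.90 (adjusted p = 0.000381) and 2.49 (adjusted p = 0.000453) between the log2 fold changes, as did Trpv2 (55.9-fold and 6.82-fold). Adgre1, the F4/80 antigen of macrophages, was 5.28-fold and 7.71-fold higher, and Aif1, a calcium-binding protein of macrophages, 4.33-fold and 5.89-fold. Their differences between the models, -0.52 (adjusted p = 0.386) and -0.45 (adjusted p = 0.113), had the opposite sign and did not pass. No other marker of the list had that sign. By the test of the difference Cd14 (1.98, adjusted p = 0.00217) and Csf1r (1.06, adjusted p = 0.00748) also passed. So did Itgam (3.58) and Cd163 (1.64), which were low in the reference kidneys. Mrc1 (0.75, adjusted p = 0.192) and Ptprc (0.61, adjusted p = 0.308) did not. Adenine rat 2, the lowest of its group for Trpv2, was the lowest for 6 of the 10 markers and the highest for 2, and adenine rat 1 was the lowest for the other 4, Adgre1, Aif1, Cd163 and Mrc1. The ratio of Trpv2 to Cd68, a lysosomal glycoprotein of macrophages, was 0.155 to 0.212 in the control group and 0.122 to 0.131 in the adenine group, 0.124 to 0.282 in the sham group and 0.0797 to 0.113 in the UUO group, a ratio chosen after the values were seen. The part of myeloid cells in the levels of Trpv2 and Trpm2 was not tested.

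All 8 fibroblast and myofibroblast markers were upregulated in both models, from a sum of 108 to 158 FPKM to 688 to 875 in the adenine model and from 105 to 155 to 1565 to 2808 in the UUO model, as were all 6 T cell markers, with a median log2 fold change of 1.88 and 3.27. Postn was below the minimum in every sham kidney, so its UUO call adds nothing to the count. Of this list only Cd4 moved apart from the rest. Cd4 changed more in the adenine model, by 1.19 (adjusted p = 0.0322, test of the difference), whereas the differences of the other T cell markers were -1.80 to -1.14. Cd4 was at 79.7 to 104 FPKM in the adenine rats, and Cd3g, the next highest of the list, at 7.02 to 13.1 FPKM. Which cells expressed Cd4 was not tested, so its change cannot be read as one of T cells alone. The endothelial markers held 1 higher and 3 lower of 5 tested in the adenine model and 3 higher in the UUO model. Of the genes of podocytes, in which Trpc6 is known, Podxl, a surface sialomucin, was lower in the adenine model (-1.46, adjusted p = 0.0239, limma) and had -0.99 in the UUO model (adjusted p = 0.236), while Synpo, an actin-binding protein, had 1.45 in the adenine model (adjusted p = 0.0806) and was higher in the UUO model (1.18, adjusted p = 0.00318). Control rat 2 was the lowest of its group for all 6 podocyte markers. It had 13.8 FPKM of Podxl beside 34.8 and 40.1 in the other control rats, and 0.771 of Synpo beside 4.53 and 3.94. Adenine rat 2 also had 13.8 FPKM of Podxl, the level of control rat 2. The share of any of these cell types in the level of Trpc6 was not tested.

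Markers of the distal segments moved beside Trpm6 and Trpv4. All 4 distal convoluted tubule markers tested were lower in the UUO model, with a median log2 fold change of -3.22, and their sum was 325 to 705 FPKM in the sham rats and 78.4 to 108 in the UUO rats. By limma 0 of 5 passed in the adenine model, 1 of them (Kcnj16) at an unadjusted p under 0.05, and the sum was 703, 108 and 436 in control rats 1 to 3 and 43.3, 301 and 59.2 in the adenine rats. Control rat 2, the lowest control for Trpm6, was also the lowest of its group for 5 of the 6 distal convoluted tubule markers. Of this list Pvalb, a defining marker in rodents, was listed at 0 or at the lowest value of the table in all but 1 kidney of each table. Of the 6 collecting duct markers 4 were lower in the adenine model (median -0.98) and all 6 in the UUO model (median -1.95), so that Trpv4 fell beside them in the adenine model and not, on the FPKM scale, in the UUO model, where it fell under both scalings named above. Of the 6 proximal tubule markers 4 were lower in both models, from a sum of 1428 to 2012 to 147 to 403 FPKM and from 1889 to 2107 to 272 to 494 FPKM. The part of these cells in the changes of Trpm6 and Trpv4 was not tested.

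**Figure D4:**
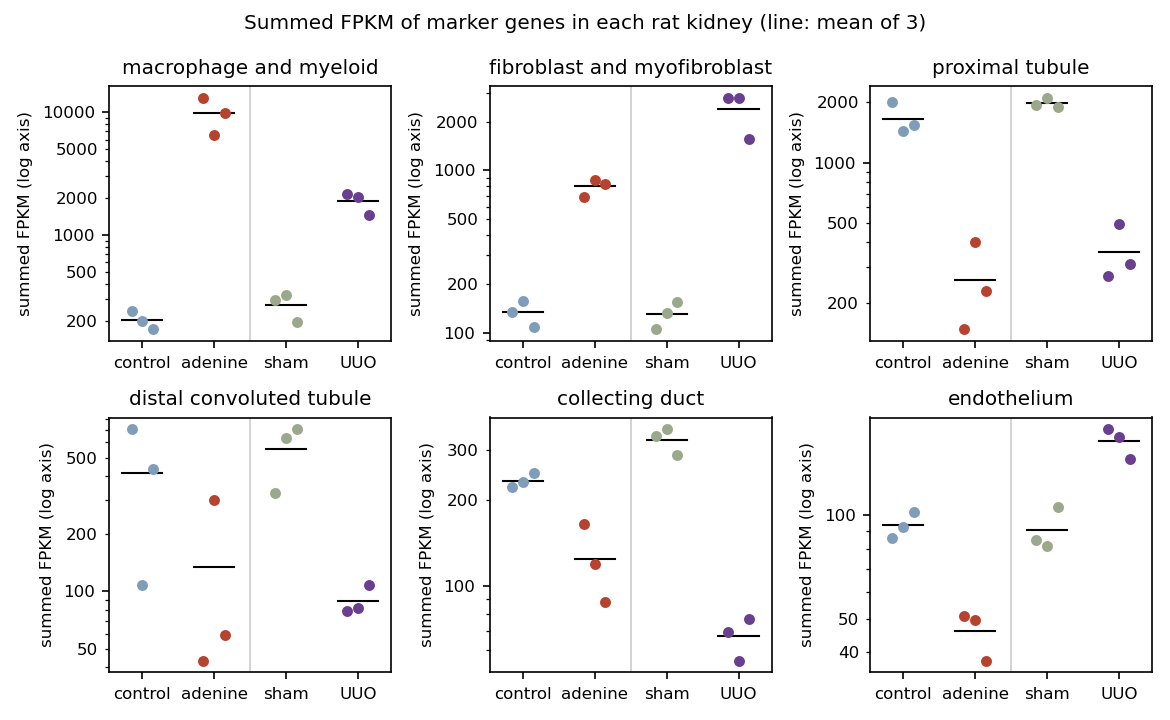
Summed FPKM of the marker genes of 6 cell types (vertical axes, logarithmic) in each kidney, with a point for each rat and a line at the mean of 3. Myeloid and fibroblast sums were higher in all affected rats, the collecting duct and proximal tubule sums were lower, and control rat 2 was low for the distal convoluted tubule sum (108).

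Of the 19 other TRP family genes looked up, 18 were listed in the control and adenine table and 19 in the sham and UUO table, and 10 in each did not reach the minimum level for a test. In the adenine model 3 of the 8 tested were higher and 2 lower (median log2 fold change -0.15), and in the UUO model 2 of 9 were higher and 4 lower (median -0.86). Trpv6, the calcium channel of the intestine that is also present in the distal nephron, was at 0.330, 0.131 and 0.407 FPKM in the control rats and 20.9, 16.3 and 18.7 FPKM in the adenine rats. Trpv6 was at 0.257, 0.284 and 0.347 FPKM in the sham rats and 6.83, 10.3 and 6.91 FPKM in the UUO rats, so it entered the test only through the affected groups. Its log2 fold changes were 5.66 ± 0.32 (adjusted p = 4.32e-05, limma) and 4.34 ± 0.24 (adjusted p = 2.17e-05). Trpv5, the calcium channel of the distal convoluted and connecting tubule, was higher in the adenine model (2.79 ± 0.81, adjusted p = 0.0223, limma). Without any 1 of the adenine rats the log2 fold change was 2.66 to 2.93, as large as before, with an adjusted p of 0.0534 to 0.0622, and control rat 2 was again low, at 0.269 FPKM beside 3.36 and 2.61. The change of Trpv5 in the UUO model was 1.10 (adjusted p = 0.0632, limma).

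Mcoln1, the calcium-release channel of the lysosome, was higher than any of the 9 members in the reference kidneys, at 33.3 to 44.9 FPKM in the control rats and 39.6 to 42.7 in the sham rats. It fell by 1.61 in the adenine model (SE 0.16, adjusted p = 0.000301, limma), to 10.8 to 14.7 FPKM, and by 1.23 in the UUO model (SE 0.09, adjusted p = 5.41e-05), to 16.4 to 19.0 FPKM. Its relative Mcoln2 fell by 2.59 in the UUO model (adjusted p = 0.00269, limma), and its value in the adenine model was 0.12 (adjusted p = 0.877), with a difference between the models of 2.71 (adjusted p = 0.0185). Mcoln3 was called higher in the adenine model (1.16, adjusted p = 0.0411, limma) and lower in the UUO model (-0.86, adjusted p = 0.0190), with a difference of 2.02 (adjusted p = 0.00777). The adenine call of Mcoln3 was lost without any 1 rat but control rat 2 (adjusted p = 0.0523 to 0.111, limma) and its UUO call without sham rat 2 or 3 or UUO rat 2 (adjusted p = 0.0542 to 0.0590). Pkd2l2, a polycystin-like channel, was at 2.69 to 6.23 FPKM in the control rats and 2.02 to 2.99 in the sham rats and 0.0227 to 0.0794 FPKM in the affected kidneys, with log2 fold changes of -4.57 ± 0.38 (adjusted p = 0.000145, limma) and -4.18 ± 0.30 (adjusted p = 5.05e-05). It passed the minimum only through the reference groups, and since the affected kidneys were below the added 0.1 FPKM, the size of its change depends on that value.

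**Figure D5:**
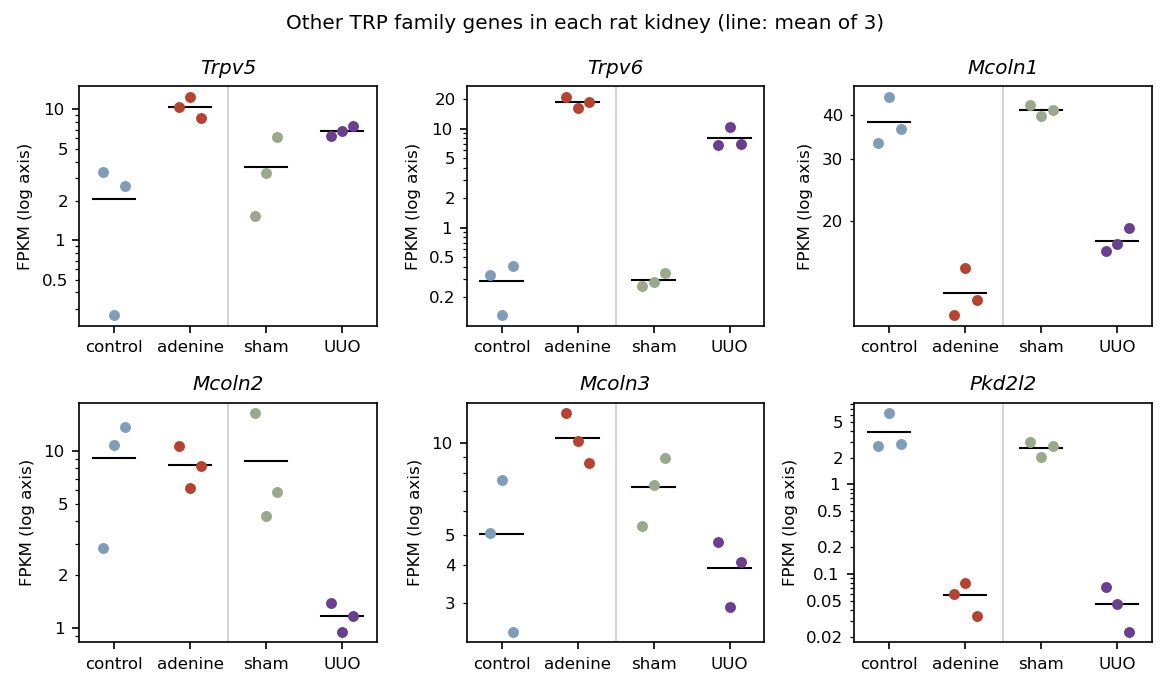
FPKM (vertical axes, logarithmic) of 6 other TRP family genes in each kidney, with a point for each rat and a line at the mean of 3. Trpv6 was higher and Mcoln1 and Pkd2l2 lower in all affected rats of both models, while Mcoln2 and Mcoln3 lay below the sham rats in the UUO rats.

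Pkd2 works with polycystin-1, the product of Pkd1, which rose in both models (0.85 ± 0.13, adjusted p = 0.00189, and 1.75 ± 0.12, adjusted p = 4.14e-05, limma). Pkd1 was at 2.54 to 2.71 FPKM in the control rats, 4.75 to 4.95 in the adenine rats, 2.91 to 3.32 in the sham rats and 10.6 to 11.1 in the UUO rats. The ratio of Pkd2 to Pkd1, also chosen after the values were seen, was 3.42 to 4.15 in the control and 2.24 to 3.09 in the adenine group and 3.70 to 4.10 in the sham and 2.09 to 3.10 in the UUO group. Of the 8 polycystin partners and cyst genes tested, 3 were higher and 1 lower in the adenine model (median 0.56) and 4 higher and 1 lower in the UUO model (median 0.70), where 39.6% and 56.1% of all entries were higher. Under median-of-ratios scaling the medians were 0.27 and 0.13, with 2 higher and 2 lower in each model, and the single lower genes, Ganab with adenine and Nek8 with UUO, were named after their values were seen. Bicc1, an RNA-binding protein that regulates Pkd2 transcripts, rose by 0.97 ± 0.15 (adjusted p = 0.00164, limma) and 1.55 ± 0.14 (adjusted p = 0.000108). Kif3a, a motor of ciliary transport, rose by 0.71 (adjusted p = 0.0119, limma) and 1.16 (adjusted p = 0.00357), and both calls of Kif3a were lost under median-of-ratios scaling (adjusted p = 0.0625 and 0.0515).

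The genes around Trpm6 in distal magnesium and calcium handling moved both ways. Of 13 tested, 4 were higher and 4 lower in the adenine model (median -0.38), and 4 higher and 5 lower in the UUO model (median -0.18). Egf, whose product stimulates TRPM6 activity, fell most, from 114, 21.4 and 87.2 FPKM in the control rats to 0.699, 2.13 and 0.319 FPKM in the adenine rats and from 145, 193 and 151 FPKM in the sham rats to 0.384, 0.517 and 1.22 FPKM in the UUO rats. Its log2 fold changes were -6.04 ± 0.80 (adjusted p = 0.000869, limma) and -7.78 ± 0.36 (adjusted p = 1.42e-05), and in neither model did all affected kidneys reach the minimum for Egf. Egfr, its receptor, rose by 1.5 (adjusted p = 0.00646, limma) and 0.80 (adjusted p = 0.0127), the latter turning to -0.02 under quantile normalization. Fxyd2, the gamma subunit of the sodium pump, fell by 1.89 (adjusted p = 0.000242, limma) and 2.73 (adjusted p = 2.1e-05), and S100g, the calcium buffer calbindin-D9k, fell by 2.46 (adjusted p = 0.00201) and 3.47 (adjusted p = 0.00013). Cnnm2, a magnesium transport regulator of the distal convoluted tubule, fell by 1.25 in the UUO model (adjusted p = 8.33e-05, limma) and had -0.91 in the adenine model (adjusted p = 0.0745).

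Gene lists around the TRPC channels were read against the 39.6% and 56.1% of all entries that were higher in the adenine and UUO tables. Of 14 genes of store-operated entry and calcium release, 10 were higher and 1 lower in the adenine model (median 1.02) and 9 higher and 1 lower in the UUO model (median 1.12), with 7 higher in each at the fewest over the alternatives and medians of 0.73 and 0.52 under median-of-ratios scaling. Plcb2, a phospholipase C of blood cells, had the largest change, at 4.50 ± 0.33 (adjusted p = 9.62e-05, limma) and 2.82 ± 0.31 (adjusted p = 0.000242), and at 0.109 to 0.301 FPKM in the reference kidneys it passed the minimum through the affected groups alone. Stim1, the calcium sensor of the endoplasmic reticulum, rose by 1.02 (adjusted p = 0.00169, limma) and 1.07 (adjusted p = 0.00136), the latter call being lost under quantile normalization (0.38, adjusted p = 0.0932). Orai2, a store-operated pore subunit, rose by 1.48 (adjusted p = 0.00128, limma) and 1.24 (adjusted p = 0.000823). Of 10 calcineurin and NFAT genes, 6 were higher and 1 lower in the adenine model (median 0.79) and 8 higher and 1 lower in the UUO model (median 0.83). The medians were 0.50 and 0.24 under median-of-ratios scaling, and 4 were higher in each at the fewest over the alternatives. Nfatc2, counted as higher in both models, was below the minimum in every control kidney, and fewer than 3 sham kidneys reached it. It passed only with the affected kidneys, so its calls add nothing to the count. The transcription factor genes Nfatc1 (2.96 ± 0.19, adjusted p = 6.3e-05, limma, and 1.55 ± 0.15, adjusted p = 0.000167) and Nfatc4 (1.46 ± 0.25, adjusted p = 0.00249, and 2.53 ± 0.28, adjusted p = 0.000271, with fewer than 3 sham kidneys at the minimum) rose in both, and Rcan2, a calcineurin regulator, fell by 1.92 (adjusted p = 0.000419) and 1.37 (adjusted p = 0.000108).

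Of 8 genes that make or break down ADP-ribose, the ligand of TRPM2, 6 were higher and 0 lower in each model by limma, 0 lower also at an unadjusted p under 0.05 (median 0.73 and 0.66), beside 39.6% and 56.1% of all entries higher. Under median-of-ratios scaling the medians were 0.44 and 0.065, 4 and 3 were higher, and 2 (Parg and Adprhl2) and 1 (Parg) were lower, genes named after their values were seen. Cd38, an ectoenzyme of leukocytes that forms cyclic ADP-ribose and ADP-ribose, was at 0.406 to 0.815 FPKM in the control and 10.5 to 12.1 in the adenine rats, and at 0.677 to 1.18 in the sham and 9.65 to 11.9 in the UUO rats. With fewer than 3 control kidneys at the minimum, it passed in the adenine table only with the affected kidneys. The log2 fold changes of Cd38 were 4.13 ± 0.25 (adjusted p = 5.18e-05, limma) and 3.54 ± 0.23 (adjusted p = 3.68e-05). Parp1, the nuclear poly(ADP-ribose) polymerase, rose by 1.45 ± 0.13 (adjusted p = 0.000207, limma) and 1.20 ± 0.10 (adjusted p = 8.72e-05). Bst1, a relative of Cd38, rose by 3.52 in the adenine model (adjusted p = 0.00883, limma) and had 0.64 in the UUO model (adjusted p = 0.0986), a difference of 2.88 between the models (adjusted p = 0.0259).

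The genes whose pattern over the 12 kidneys was most like each member were found by the root mean square difference of log2(FPKM + 0.1) after each table was centred, among 12276 genes. The nearest to Trpv2 were Slc37a2 (0.225), Matk (0.308) and Slc7a11 (0.311). Those of Trpm2 were Klf10 (0.182), Vat1 and Cbx2, those of Trpc6 Rcan3 (0.217), Srsf12 and Col4a6, and those of Trpm4 Snx33 (0.090), Pwwp3a and Trip10. Pkd2 was nearest to Ddx52 (0.098), Eif2ak3 and Lrp4, and Trpc1 to Rnf25 (0.114), Fubp3 and Pogz. Trpv4 was nearest to Traf4 (0.079), Impa1 and Tmem126b, Trpm6 to Asah2 (0.189), Wdr72 and Ahcyl2, and Trpm7 to Lpgat1 (0.082), Pdik1l and Lin7c. The distance of the nearest gene was larger for the members with larger changes, Trpv2, Trpc6 and Trpm2, and for Trpm6.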

How the data were processed

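Poly(A) RNA libraries with dUTP strand marking were made from the kidneys of 12 rats in 4 groups of 3. The submitters' processing notes name cutadapt 1.9, HISAT2 2.0.4, StringTie 1.3.4d, edgeR and DESeq2 without their roles. The build and annotation are not given in the sources used here. The deposited values are FPKM, which the authors made separately for the control and adenine table (22132 entries) and the sham and UUO table (32623 entries), so depth is unknown and no counting intervals were given.

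Entries that reached 0.5 FPKM in 3 or more samples of the 6 in a table were tested on log2(FPKM + 0.1) with limma 3.58.1 (R 4.3.3, eBayes with a trend) and Benjamini-Hochberg adjustment over each table; the script was tested on simulated data. To compare the models, log2 fold changes were subtracted and divided by the standard error of the difference (two-sided, summed degrees of freedom). Exact permutation tests cannot go below 0.1 with 3 against 3 and were not used for calls. Same-numbered rats were different animals whose deviations correlated at -0.12 to -0.049 (adenine model) and 0.050 to 0.105 (UUO model), so numbers were not taken as pairs.

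The members and gene lists were chosen with earlier results of these data known. Named genes were all members, list genes with the largest called changes or known as direct partners, and the 3 nearest patterns per member. Alternatives were other pseudocounts, filters and scalings, no trend, a replicate block and each rat left out. Promoters and gene bounds came from RefSeq (GRCr8). The list of podocyte markers is not reported here in full.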

Additional observations from a re-analysis of the deposited data

Results flagged for a closer look

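The log2 fold changes of 4 members differed between the adenine and UUO models by the test of the difference itself. That of Trpv2 was larger in the adenine model by 2.93 (5.61 against 2.68, adjusted p = 0.00013), with all 3 affected rats above all 3 reference rats in both. The study, citing its qRT-PCR figure, gives the opposite order of the models for Trpv2. Trpv4 differed by -0.76 (-0.76 against 0.0057, adjusted p = 0.0050), with all 3 adenine rats below the control rats and the sham and UUO rats overlapping. Trpm4 differed by -0.99 (0.74 against 1.73, adjusted p = 0.0082) and Pkd2 by -0.69 (0.42 against 1.11, adjusted p = 0.0345), with the affected rats above the reference rats in both models. The duration, the treatment and the separate normalization of the tables cannot be told apart in these differences. Groups of 3 are too small for a search for single samples far from the others.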

How the results depend on the processing

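The calls of Trpv2, Trpm2 and Trpc6 in both models, of Trpv4 in the adenine model and of Trpm4, Pkd2 and Trpm6 in the UUO model kept their direction and their side of the threshold under all 15 alternatives of a model. For Trpv2 the log2 fold change was 4.70 to 5.87 with adenine and 1.88 to 2.90 in the UUO model. Scaling moved most of what changed. Under median-of-ratios scaling and quantile normalization, 3 members were lower in the UUO model instead of 1, 1 and 2 members differed between the models instead of 4, 1 and 1 were upregulated DEGs in the adenine model instead of 2, and 1 and 0 in the UUO model instead of 3. The UUO value of Trpv4 became -0.59 and -0.44, and that of Trpc1 became -0.027 under quantile normalization. A pseudocount of 1 left 1 upregulated DEG with adenine and 0 with UUO, since it shrinks folds of low genes. Leaving out single rats gave 1 to 2 upregulated DEGs in the adenine and 2 to 3 in the UUO model, 4 to 5 members higher in the former and 6 in the latter, 1 lower in each, and 3 to 4 members that differed between the models. Trpc1 in the adenine model passed with FPKM rescaled to the same sum (0.60, adjusted p = 0.0418, limma), as did Pkd2 (0.69, adjusted p = 0.00943). The causes were not tested.

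Rats that share a number were not pairs by design. A fit with the number as a replicate block called the same counts of members, 4 higher and 1 lower in the adenine model, 6 higher and 1 lower in the UUO model, and 4 that differed between them, and no member changed its side of the threshold. In the UUO model each same-number correlation (0.050 to 0.105) was above the highest of the others (0.016), a hint from the data only.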
